A study of Danio rerio with 12 samples.

Results

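The sorted cells described here came from 36 h zebrafish embryos that carried a th:Gal4VP16 driver and a UAS:EGFP responder, a pair of transgenes meant to mark catecholaminergic cells. Whole embryos were dissociated and separated by fluorescence-activated cell sorting, and 1 GFP-positive and 1 GFP-negative library were made from amplified polyadenylated RNA, 2 of the 12 libraries of the series. Cells of both libraries came from embryos with both transgenes and differed, by their labels, in whether they glowed. The same driver and responder were sorted once more at 48 h, and that pair is set beside the 36 h pair where the times are compared. The submitters describe this driver as inefficient in early catecholaminergic neurons. How far its activity shaped the GFP-positive library was not tested. The deposited table does not name its sides, and the GFP-positive side was taken as the library whose RPKM value (reads per kilobase of exon and per 1000000 reads of the library) minus that of the other gave the deposited difference. This held for 32312 of 32312 features within 1e-06. Every direction below rests on that reading of the difference, and would turn round if it were coded the other way.

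Catecholaminergic neurons turn tyrosine into L-DOPA with tyrosine hydroxylase (th), which needs the cofactor tetrahydrobiopterin, and L-DOPA into dopamine with the decarboxylase encoded by ddc. Noradrenergic cells add dopamine beta-hydroxylase (dbh), and vesicles are filled by the monoamine transporter encoded by slc18a2. In zebrafish the first such neurons lie in the ventral diencephalon, under the transcription factor genes otpa and otpb, and in the hindbrain locus coeruleus, where phox2a acts.

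The GFP-positive library had 22779177 exon reads and the GFP-negative library 21326333, of which 94.5% and 94.1% were uniquely placed. Reads fell on 19814 features in the GFP-positive library and on 22524 in the GFP-negative one. Exon-exon reads made up 32.2% of exon reads in the GFP-positive library and 25.6% in the GFP-negative library. Each side is 1 library, so there is no replicate check, no p-value is given, and the 95% exact intervals cover the counting of reads only. Amplified reads without molecular identifiers are not independent molecules, and the intervals are too narrow to that extent. In bulk samples, fewer cells of a type and less RNA per cell cannot be told apart.

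Ratios are log2 values of the GFP-positive over the GFP-negative library, after trimmed mean (TMM) scaling and with 2 reads added to each side in proportion to depth. A gene was considered when at least 1 library had 5 CPM (reads per 1000000) and 20 reads, which 9935 genes did. Their median ratio was -0.085. Plain library-size scaling moved the ratios by -0.74 and the median to -0.82. The direction of a ratio between 0 and about 0.74 therefore depends on the scaling, while ratios below 0 stay below 0 and become lower. Cytoplasmic ribosomal protein genes took 34.3% of exon reads in the GFP-positive library and 20.6% in the GFP-negative library, and their part in that shift was not tested.

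The catecholamine genes were low in both libraries at 36 h, and 1 of 9 matched genes was considered. The gene th (chromosome 25, 24778671 to 24797839, Zv9) had 44 reads in the GFP-positive library and 18 in the GFP-negative library, a log2 ratio of 1.80 with an interval of 1.12 to 2.82. These are 0.898 and 0.375 RPKM. For ddc (chromosome 16, 9598874 to 9643081) the counts were 107 reads in the GFP-positive and 24 in the GFP-negative library, a ratio of 2.69 (2.16 to 3.51). The gene that passed, dbh (chromosome 10, 10530157 to 10573014), had 204 GFP-positive and 4 GFP-negative reads and a ratio of 5.64 (4.94 to 8.21). Both hydroxylase genes and ddc were therefore higher in the GFP-positive library, yet dbh, the most abundant of the 3 per length, reached 2.68 RPKM there against 0.0536 RPKM in GFP-negative cells.

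Other parts of the catecholamine machinery had few or no reads, or ratios near 0. The vesicular transporter gene slc18a2 had 0 reads in the GFP-positive library and 8 in the GFP-negative library. That is 1.70-fold lower when 0 is set to a floor of 3 reads, on too few reads for a firm direction. No read fell on SLC6A3, the dopamine transporter gene, on either side, and th2, another tyrosine hydroxylase gene, had 0 GFP-positive and 3 GFP-negative reads. The breakdown enzyme genes mao and comta had 54 and 47 reads in the GFP-positive library, against 80 and 67 in the GFP-negative one, and both intervals spanned 0. Their ratios were 0.08 for mao and 0.13 for comta. So the library held transcripts of the synthesis enzymes with no detected read of either transporter, at a depth where 3 reads equal 0.132 CPM.

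Cofactor genes were split. All 9935 considered genes gave 1384 that were 2-fold or more higher in the GFP-positive library (13.9%) and 1034 2-fold or more lower (10.4%). By library size these counts were 691 and 3983, the background for every list count by library size below. Of 6 considered tetrahydrobiopterin genes 3 were 2-fold or more higher (1 by library size) and 0 lower. The recycling reductase gene qdpra had 140 reads in the GFP-positive library and 50 in the GFP-negative one, a ratio of 2.08 (1.66 to 2.63). Its paralog qdprb1 had 652 against 402 reads, a ratio of 1.34, and gchfr, whose product regulates the first enzyme of the pathway, had 145 against 83 and a ratio of 1.43. The first enzyme itself stood at 227 GFP-positive and 415 GFP-negative reads for GCH1 and at 1795 against 3330 reads for gch2. Those ratios were -0.22 and -0.24, close to the median of all genes.

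Regulators of these neurons were not higher as lists. None of 11 considered noradrenergic and sympathetic regulator genes was 2-fold or more higher and 1 was 2-fold or more lower (5 by library size), with a median of -0.19 (-0.93). The locus coeruleus gene phox2a had 1 read in each library. The sympathetic factor gene hand2 had 350 and 349 reads and a ratio of 0.65, which library-size scaling turned to -0.09. Chromogranin A (chga), a protein of dense-core vesicles, stood at 173 reads in GFP-positive and 150 in GFP-negative cells, a ratio of 0.84 (0.53 to 1.18).

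Of 23 considered dopaminergic and diencephalic transcription factor genes, 0 were 2-fold or more higher and 5 2-fold or more lower (14 by library size), with a median of -0.52 (-1.24). Counts for otpa were 1224 in the GFP-positive library and 3520 in the GFP-negative library, a ratio of -0.88 (-0.97 to -0.78). For otpb they were 927 and 2189, a ratio of -0.59. The nuclear receptor genes nr4a2a and nr4a2b, known for dopaminergic roles in mammals, had 53 and 27 GFP-positive reads against 120 and 128 GFP-negative reads. Their ratios were -0.52 and -1.54. The highest ratio of the list was that of fezf2, a forebrain factor gene, with 339 reads against 277 and a ratio of 0.93. The synthesis enzyme genes th, ddc and dbh were thus higher in the GFP-positive library, th and ddc on reads under the minimum. The listed regulators were as lists at similar or lower levels in the GFP-positive library, and the transporters had too few reads on either side for a contrast.

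**Figure D1:**
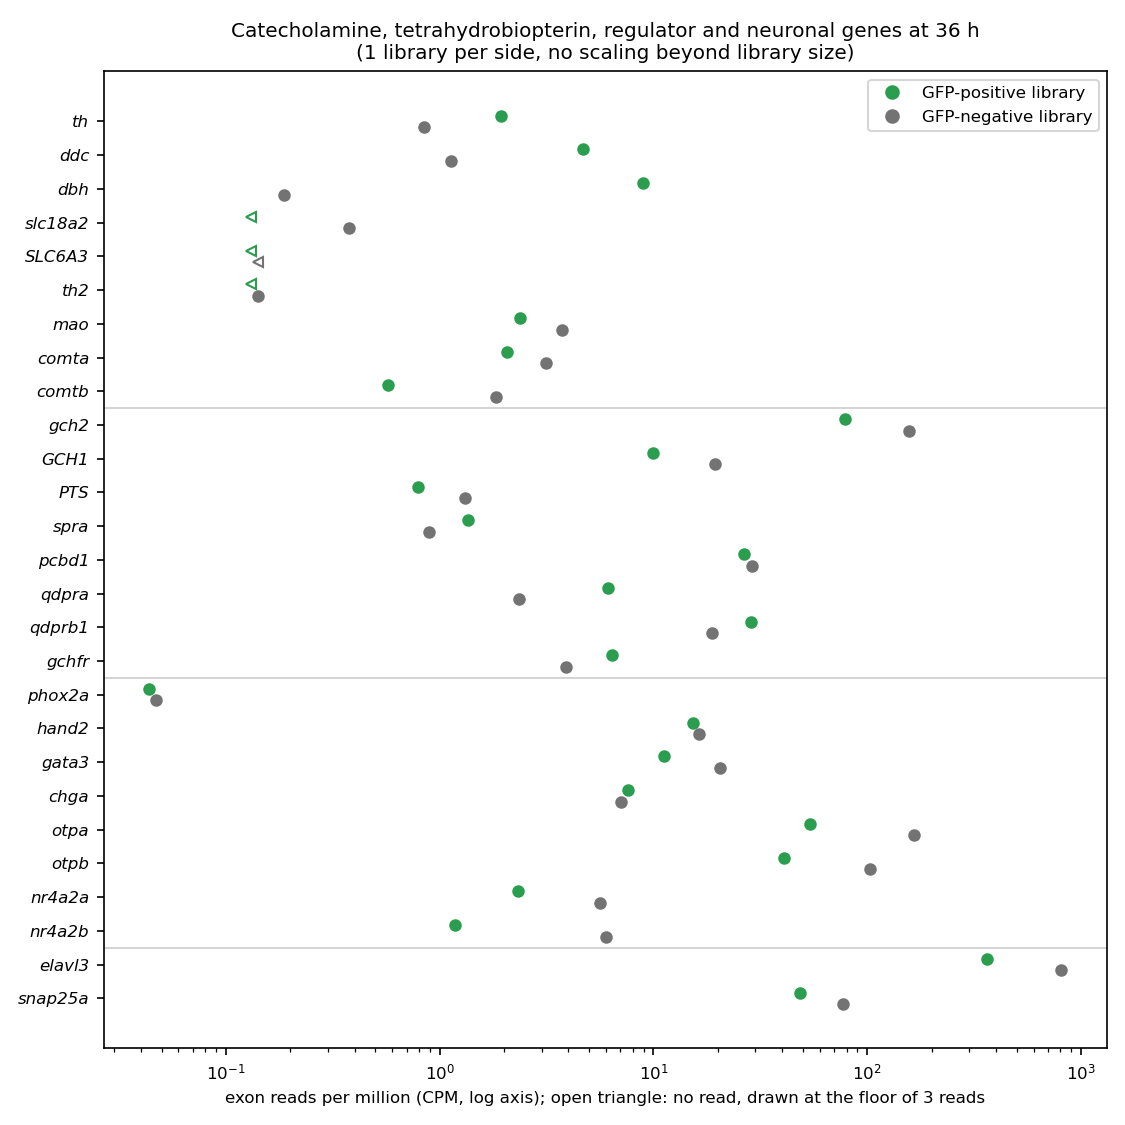
CPM (exon reads per 1000000, log axis) of catecholamine, tetrahydrobiopterin, regulator and neuronal genes in the GFP-positive (green) and the GFP-negative (grey) library at 36 h, 1 library per side, with open triangles at the 3-read floor for genes without a read. The green points of th, ddc and dbh lie right of the grey ones, and those of otpa, otpb, nr4a2a, nr4a2b and elavl3 lie left of them.

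Pan-neuronal genes behaved like the regulators, with 0 of 29 considered genes 2-fold or more higher, 3 2-fold or more lower and a median of -0.38. The RNA-binding protein gene elavl3 had 8285 reads in the GFP-positive library and 17259 in the GFP-negative one, a ratio of -0.41 (-0.45 to -0.37). Synaptic snap25a stood at 1100 against 1640 reads and a ratio of 0.07, and vamp2, a vesicle fusion gene, at 342 against 295 and 0.86. Glutamatergic slc17a6b had a ratio of 0.47 (-0.27 by library size) with 472 against 534 reads, and GABAergic gad1b one of -1.34 with 37 against 151 reads. Sorting for GFP at 36 h therefore gave a library that was not richer in general neuronal transcripts than the remaining cells by this scaling. By library size 21 of the 29 genes were 2-fold or more lower, against 3983 of all 9935 considered genes. The medians by that scaling were -1.12 for the list and -0.82 for all considered genes.

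Across all considered genes, 549 (5.53%) were 4-fold or more higher in the GFP-positive library and 171 (1.72%) 4-fold or more lower. The higher set took 19.1% of exon reads in GFP-positive cells and 4.34% in GFP-negative cells. The lower set held 0.582% of reads in the GFP-positive library and 5.13% in the GFP-negative library. The higher set made up 76.2% of the 4-fold calls with TMM and 36.4% with library-size scaling. Of the 549, 96 were in one of 43 gene lists of cell types and pathways, and 260 had clone or placeholder names. For the 171 lower genes these counts were 33 and 67. The same shares over all considered genes are not given, so the counts describe the sets only. Ordered by median, heart muscle, keratins and periderm, skin ionocytes and claudins led the lists, and red cell, leukocyte and endothelial genes had the lowest medians among lists with at least 3 considered genes.

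**Figure D2:**
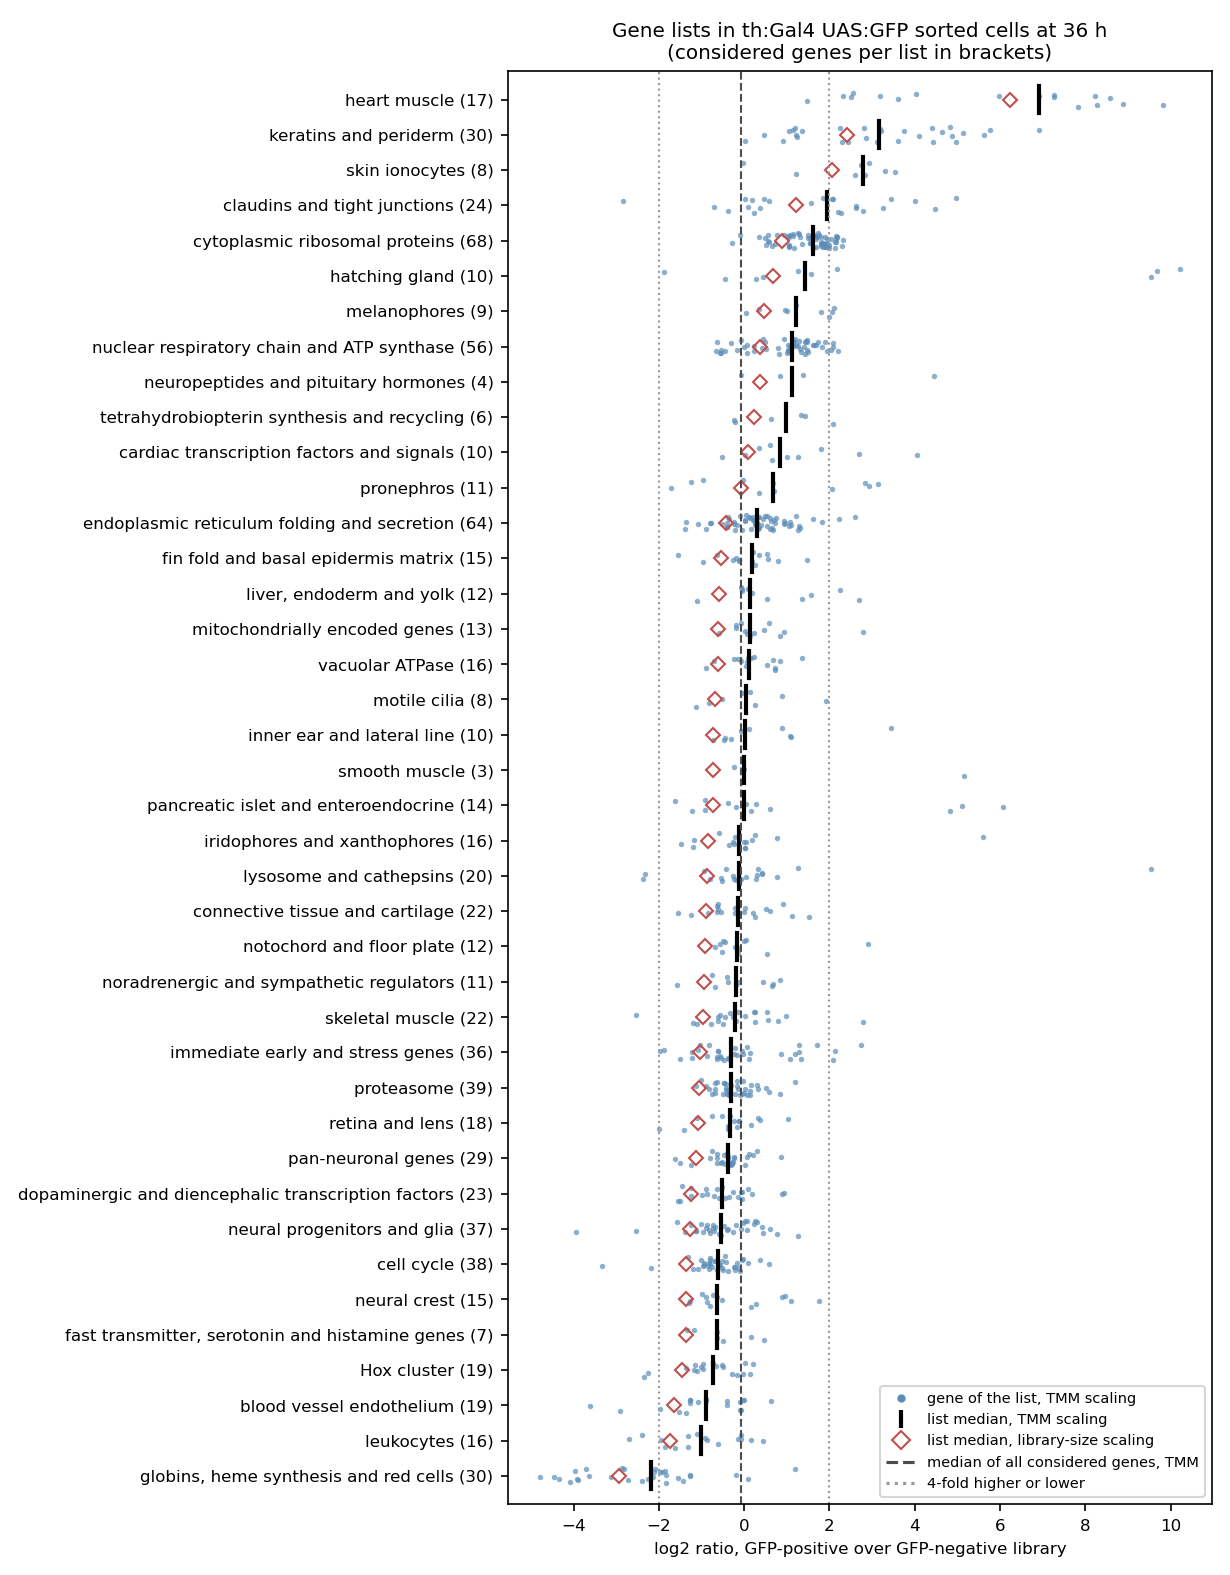
Log2 ratios at 36 h, GFP-positive over GFP-negative library, for the considered genes (blue points) of each list with at least 3 of them, with list medians by TMM (black bars) and by library-size scaling (red diamonds). Heart muscle has a median of 6.92 and red cell genes one of -2.19. Lists with TMM medians a little above 0, such as the pronephros, have medians below 0 by library size.

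Nearly all reads of heart muscle genes lay in the GFP-positive library. The 27 matched genes summed to 41963 reads there and to 1111 reads in the GFP-negative library. Of 17 considered genes 16 were 4-fold or more higher, with a median of 6.92 (6.22 by library size). A gene can be considered through its GFP-positive reads alone, and with no minimum the list median was 3.40. Natriuretic peptide A (nppa), a hormone of the early heart chambers, had 1075 GFP-positive and 5 GFP-negative reads, a ratio of 7.82 (7.17 to 10.02). Atrial myosin (myh6) had 534 reads against 3, a ratio of 7.27 (6.57 to 10.41). The ventricular myosin paralog vmhcl, which was not on the list, had 2187 reads against 11 and a ratio of 8.00. Chamber genes of both the atrium and the ventricle were therefore among the highest ratios.

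Thin filament, thick filament and membrane components gave similar contrasts. Troponin C (tnnc1a) had 674 reads in the GFP-positive library and 1 in the GFP-negative one, a ratio of 8.26 (7.56 to 15.35). Troponin I (tnni1b) stood at 2016 against 18 reads and 7.27, and myosin-binding protein C (mybpc3) at 1268 against 14 reads and 6.92. The heart sodium-calcium exchanger gene slc8a1a had 298 reads against 5, a ratio of 5.98 (5.31 to 8.18). The cardiac connexin gene cx36.7, under the CPM minimum, had 78 reads and none, at least 40.7-fold higher. Titin (ttna), which skeletal muscle also uses, was less extreme at 3421 against 436 reads and 3.61, and ldb3b, a gene of the Z-disc, was the considered member under 4-fold, at 140 against 77 reads and 1.48. Members under the minimum went both ways. The calcium pump gene atp2a2a had 61 reads against 89 and a ratio of 0.10 (-0.39 to 0.59). The ratios of ttnb, alpk2, cmya5 and ryr2a were -1.44, -1.51, -1.40 and -0.50, and those of tcap, xirp1 and smpx were 1.96, 1.47 and 2.83.

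Cardiac transcription factor genes were mixed, with 2 of 10 considered 4-fold or more higher and 5 2-fold or more higher (3 by library size). The cardiac homeobox gene nkx2.5 had 257 reads in the GFP-positive library and 22 in the GFP-negative one, a ratio of 4.05 (3.56 to 4.89). The endoderm and heart factor gene gata6 had 229 against 53 reads, with an interval of 2.32 to 3.22, and tbx5a, a heart and fin bud gene, 124 against 54 and a ratio of 1.80. The other considered members were nearer to equality. The ratio of tbx20 was 1.25 and that of tbx2b 0.01, and isl2a, also used by neurons, had -0.52 with 101 against 228 reads.

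Hatching gland cells secrete the proteases that dissolve the egg envelope, and their enzyme genes were higher in the GFP-positive library, he1a and he1b with ratios above 9. The metalloprotease gene he1a (chromosome 22, 14237424 to 14238861) stood at 3448 RPKM in the GFP-positive and 6.69 RPKM in the GFP-negative library. Of its GFP-positive reads 20.1% were unique, since he1b is a close copy, so the split between the copies is uncertain. From unique reads alone the ratios were 9.12 for he1a and 9.59 for he1b. Another enzyme gene, he2, had 43 reads and none, at least 22.5-fold higher. All 3 enzyme genes were thus higher, and 27.9% of the he2 reads were unique.

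The hatching gland list as a whole was less uniform. With he1a and he1b included, 4 of 10 considered genes were 4-fold or more higher, and the median was 1.42 (0.68 by library size, and 0.37 without features under 80% unique reads). The disulfide isomerase gene agr2, used by mucus-type secretory cells, had 9150 reads in the GFP-positive library and 3153 in the GFP-negative library, a ratio of 2.18 (2.13 to 2.24). The factor gene foxa3 had a ratio of 1.57 with 202 against 105 reads. Secretory regulator xbp1 was near equality at 4278 against 5486 reads and 0.29, which library-size scaling turned to -0.45. The Krüppel-like factor gene klf4 was lower, with 112 reads against 649 and a ratio of -1.87.

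Keratin and periderm genes formed the largest share of the GFP-positive reads among the cell type lists. They took 4.78% of exon reads in the GFP-positive library and 0.457% in the GFP-negative one. Of 30 considered genes 21 were 4-fold or more higher, with a median of 3.16 (2.42 by library size). The fin fold and basal epidermis matrix list differed, with a median of 0.18 (-0.55) over 15 considered genes. Of those, 1 was 2-fold or more higher and 1 lower (0 and 4 by library size). The ictacalcin gene icn, an S100 calcium-binding protein of skin, had 134371 reads against 7434 and a ratio of 4.82 (4.79 to 4.86). Keratin krt4 had 548230 reads in the GFP-positive library and 50449 in the GFP-negative library, a ratio of 4.09. Surface layer genes ppl (periplakin, a cornified envelope plakin) and anxa1c (an annexin) had 4871 and 24627 GFP-positive reads against 215 and 778 GFP-negative reads. Their ratios of 5.13 and 5.63 exceeded that of tp63, the basal keratinocyte factor, which had 839 against 589 reads and a ratio of 1.15 (1.00 to 1.31). The epithelial factor gene grhl1 lay between, at 2.86, as did elf3 with 206 against 33 reads, while grhl2a was at 0.02 and changed sign to -0.72 by library size.

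Epithelial junction genes followed the skin genes. E-cadherin (cdh1) had 5867 reads in the GFP-positive and 755 in the GFP-negative library, a ratio of 3.60 (3.50 to 3.72). Of 24 considered claudin and tight junction genes, 12 were 4-fold or more higher and 1 4-fold or more lower, with a median of 1.95 (1.21 by library size). The claudin genes cldne and cldnf had ratios of 4.98 and 4.47, and occludin oclnb one of 4.00. The scaffold gene tjp3 had 426 reads against 107 and a ratio of 2.61, whereas its widely expressed paralog tjp1 had 1143 against 1691 and 0.08 (-0.66 by library size). The member that was lower was cldn11a, with 17 reads in GFP-positive and 206 in GFP-negative cells and a ratio of -2.84 (-3.76 to -2.24).

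Skin ionocytes take up salts from the water with a basolateral sodium-potassium pump, and 6 of 8 considered ionocyte genes were 4-fold or more higher. The list median was 2.78 over considered genes and 1.35 with no minimum. The pump beta subunit gene atp1b1b had 4610 reads in the GFP-positive library and 734 in the GFP-negative library, a ratio of 3.29 (3.19 to 3.41). The epithelial calcium channel gene trpv6 had 161 reads against 36, a ratio of 2.73 (2.28 to 3.37), and the carbonic anhydrase genes ca15a and ca2 had ratios of 2.94 and 2.59. Their fate regulators were sparse. The forkhead gene foxi3a had 100 reads against 27, a ratio of 2.43, but foxi3b had 7 against 13 and gcm2 37 against 34.

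The pronephros, the embryonic kidney, gave 4 of 11 considered genes 4-fold or more higher and 2 2-fold or more lower. The bicarbonate cotransporter gene slc4a4a had 369 reads in the GFP-positive library and 63 in the GFP-negative one, a ratio of 3.15 (2.81 to 3.61), and cdh17, a cadherin of kidney and gut, had 179 against 35 and 2.92. The other higher members are also on the ionocyte or the claudin list. The phosphate cotransporter gene slc20a1a was lower, with 46 against 143 reads and a ratio of -0.96 (-1.50 to -0.50). Kidney transcription factor genes included pax2a at 0.67 (-0.07 by library size) and mecom at -1.72 with 28 against 150 reads. The list median was 0.67 with TMM and -0.07 with library-size scaling.

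Some hormone genes of the pancreatic islet were far higher in the GFP-positive library, while others and several factors of islet cells were not. Of 14 considered islet and enteroendocrine genes 3 were 4-fold or more higher, namely sst2 (somatostatin), gcgb (glucagon) and ins (insulin), with ratios of 6.08, 5.12 and 4.82, and the list median was -0.0016. The other glucagon gene, gcga, had 82 reads in the GFP-positive library and 0 in the GFP-negative library, at least 42.8-fold higher. Of those gcga reads 43.9% were unique, and unique reads took its ratio from 5.74 to 4.59. Ghrelin (ghrl) had 30 reads and none, at least 15.7-fold higher, and the prohormone convertase gene pcsk1 had 22 against 2, a ratio of 3.05 (2.08 to 7.24). These 3 genes did not reach 5 CPM. The somatostatin paralog sst1.1 had 116 against 119 reads and a ratio of 0.60 (-0.13 by library size), and sst3, under the minimum, had 81 against 104. Of the factors, pdx1, also under the minimum, had 65 against 28 reads and 1.78, and pax6b stood at -0.05. Lower were nkx6.1, neurod and nkx2.2a, shared with neurons, at -0.91, -0.38 and -0.91, and pcsk2, a convertase gene of neurons and islets, at -1.22. Peptide YY (pyya) had 59 reads against 290 and a ratio of -1.62.

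Of 12 considered liver, endoderm and yolk genes 4 were 2-fold or more higher and 1 lower, gata6 and foxa3 among the higher ones. Gut fatty acid-binding protein fabp2 had 1214 reads in the GFP-positive and 397 in the GFP-negative library, a ratio of 2.25. The hepatic and tubule factor genes hnf1ba and hnf4a, both under the minimum, had 69 and 58 GFP-positive reads against 19 and 17 GFP-negative reads. Of 15 matched exocrine pancreas genes 2 were considered, and both were 2-fold or more lower. Among them the factor gene ptf1a, which hindbrain and retinal neurons also use, had 11 reads against 150 and a ratio of -2.95 (-4.15 to -2.24). The elastase gene ela2, under the minimum, had none against 63, at least 13.4-fold lower.

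Several primordial germ cell transcripts were higher in the GFP-positive library, at few reads. Of 10 matched germ cell genes 2 were considered, nanos and dzip1, and their directions differed. The other members named here were under the minimum, and nanos was matched to the list after its values were seen. The germ plasm gene listed as nanos (chromosome 1, 55787173 to 55788301), which the reference table pairs with nanos3, had 448 GFP-positive and 6 GFP-negative reads, a ratio of 6.38 (5.74 to 8.32). The helicase gene vasa had 82 reads against 12, a ratio of 3.18 (2.54 to 4.43), and tdrd7, a germ granule gene, had 41 against 3 and 3.62 (2.77 to 6.76). The germ cell carbonic anhydrase gene ca15b had 29 reads and none. In contrast, dnd, needed for germ cell survival, had 8 against 4 with an interval that spanned 0 (-0.25 to 3.83), and dzip1, which is not restricted to the germ line, had 226 against 518 and a ratio of -0.55.

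The smooth muscle list had 3 considered members with a median of 0.00084 (-0.74 by library size). Smooth muscle actin (acta2), which the early heart also transcribes, had 167 reads in the GFP-positive library and 5 in the GFP-negative library, a ratio of 5.15 (4.46 to 7.35). The tropomyosin genes tpm1 and tpm2, the other considered members, had 182 and 70 GFP-positive reads against 285 and 130 GFP-negative reads. Of 22 considered skeletal muscle genes, 1 was 4-fold or more higher, 1 4-fold or more lower, and the median was -0.23. The higher one, the slow myosin gene smyhc1, had 200 reads against 43 and a ratio of 2.80 (2.38 to 3.38). Fast fibre genes mylz2 and atp2a1 stood at -0.61 and -0.45. The myogenic factor gene myf5 had 15 against 147 reads and a ratio of -2.53, and myog had none against 31, at least 6.59-fold lower.

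Melanophores, the black pigment cells, gave 6 of 9 considered genes 2-fold or more higher and 2 4-fold or more higher, with a median of 1.21 (0.47 by library size). The pigment enzyme gene tyrp1b had a ratio of 1.98, and silva, a melanosome fibre gene, had 1883 reads in the GFP-positive and 838 in the GFP-negative library and a ratio of 1.81 (1.70 to 1.94). The melanosome traffic gene rab38 had 253 reads against 94 and a ratio of 2.05. The melanocortin receptor gene mc1r had 32 reads and none, at least 16.7-fold higher. The lineage factor gene mitfa was not as far apart, with 73 against 92 reads and 0.31 (-0.15 to 0.77), which library-size scaling turned to -0.42. Iridophore and xanthophore genes had a median of -0.11 and ratios from -1.47 to 5.60. Of 16 considered genes 1 was 4-fold or more higher and 3 were 2-fold or more lower. The iridophore purine enzyme gene pnp4a was at 0.03 (-0.70 by library size).

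Neuropeptide and pituitary hormone genes ranged widely. Agouti-related peptide (agrp; chromosome 7, 36535830 to 36537982), which drives feeding, had 393 GFP-positive and 26 GFP-negative reads, a ratio of 4.44 (3.99 to 5.20). Galanin (GAL) had 292 against 174 and a ratio of 1.38, and tachykinin (tac1) 177 against 153 and 0.85. The RFamide peptide gene npvf (chromosome 19, 20459291 to 20461929) had 1 read in the GFP-positive library and 287 in the GFP-negative library, a ratio of -6.17 (-12.83 to -5.03), the lowest among considered genes with a gene symbol. Prolactin (prl) had 2 reads against 97, a ratio of -4.16 (-8.02 to -3.06), without reaching 5 CPM, and trh (thyrotropin-releasing hormone) had 7 against 103 and -2.98. Of 23 matched genes in the neuropeptide and pituitary list, which does not hold npvf, 4 were considered. Their median was 1.12 (0.38 by library size) and their median exon length 798.5 bases. All considered genes of 500 to 1000 exon bases had a median of 0.69.

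Genes of dividing and immature cells had ratios below 0 in most cases. Of 38 considered cell cycle genes 0 were 2-fold or more higher, 6 2-fold or more lower (27 by library size) and 2 4-fold or more lower, with a median of -0.62. Cyclin A2 (ccna2) had 12 reads in the GFP-positive and 210 in the GFP-negative library, a ratio of -3.32 (-4.46 to -2.65), and the replication clamp gene pcna had 11337 against 31355 and -0.82. The neural progenitor and glia list had a median of -0.54 and 8 of 37 genes 2-fold or more lower (23 by library size). Its proneural member atoh1b had 24 against 229 reads and a ratio of -2.53, while the gap junction gene cx43 had 1317 against 859 and 1.26. Hox cluster genes had a median of -0.72, with hoxb7a at -2.34 and hoxa10b at -2.25, each at 16 GFP-positive reads.

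Stress and immediate early genes were split in direction with TMM scaling. By library size most were lower, as were most considered genes (18.3% above 0, and 3983 of 9935 2-fold or more lower). Of 36 considered genes 9 were 2-fold or more higher (3 by library size) and 7 2-fold or more lower (18), with a median of -0.30 (-1.04). The immediate early genes fos and junb, which tissue dissociation can induce, had 4080 and 916 reads in the GFP-positive library, against 14815 and 3036 in the GFP-negative library. Their ratios were -1.21 and -1.08. On the other side, the survival gene mcl1b had 2222 against 794 reads and a ratio of 2.13 (2.01 to 2.25), and klf2b 562 against 130 and 2.74. The autophagy receptor gene sqstm1 had 2.09, with 20.7% of its GFP-positive reads unique.

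Blood and vessel genes were lower in the GFP-positive library. Globin, heme synthesis and red cell genes took 0.317% of exon reads in GFP-positive and 2.66% in GFP-negative cells, and 18 of 30 considered genes were 4-fold or more lower, with a median of -2.19 (-2.93 by library size). The erythroid factor gene gata1a had 14 reads against 413, a ratio of -4.09 (-5.12 to -3.47), and the heme pathway gene hmbsb 99 against 2459 and -3.97. Embryonic globins had less negative ratios than these. Alpha globin hbae3 had 15572 against 172873 reads and a ratio of -2.82, and beta globin hbbe3 had 23690 against 176514 and -2.25 (-2.27 to -2.23). The transferrin receptor gene tfr1a had none against 94 reads. Exceptions were klf3, a factor also used outside blood, at 343 against 233 reads, and prdx2, an antioxidant enzyme gene, at 0.08 (-0.66 by library size).

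Leukocyte genes had a median of -1.01, with 0 of 16 considered genes 2-fold or more higher and 8 2-fold or more lower. Plastin (lcp1), an actin-bundling protein of white cells, had 63 reads in the GFP-positive and 650 in the GFP-negative library, a ratio of -2.69 (-3.12 to -2.34). The neutrophil peroxidase gene mpx had 282 against 1096 and -1.31, while lysozyme (lyz) had 7025 against 12106 and -0.14. For il1b, an inflammatory cytokine gene, there were none against 33 reads, at least 7.02-fold lower. Endothelial genes had a median of -0.91 and 9 of 19 2-fold or more lower. The blood and vessel factor gene fli1b had 10 reads against 134, a ratio of -2.91 (-4.19 to -2.17), the vessel receptor gene kdrl had 62 against 129 and -0.40 (-0.87 to 0.04), and sox7 had 272 against 274 and 0.63 (-0.10 by library size).

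Several highest and lowest ratios belonged to genes outside the main lists. The oxidase gene duox, which makes hydrogen peroxide in epithelia, had 859 reads in the GFP-positive and 15 in the GFP-negative library, a ratio of 6.27 (5.76 to 7.33). The hydroxylase-like gene ch25hl1.1 had 1058 against 22 and 6.09, and scamp2l, a secretory carrier membrane protein gene, 705 against 12 and 6.26. The ratio of s100a11, 6.66, rested on shared reads, since 0.337% of its GFP-positive reads were unique. At the low end, rab34, a small GTPase gene, had 0 reads against 116, at least 24.7-fold lower, and slc10a4, a vesicular carrier gene of cholinergic and monoaminergic neurons in rodents, had 1 against 121, a ratio of -4.94 (-11.59 to -3.77). The neuronal cholesterol hydroxylase gene cyp46a1 had 2 against 125 and -4.51 (-8.38 to -3.43). At least 100 reads in one library and at most 3 in the other were found for 19 features low in the GFP-negative library and for 16 low in the GFP-positive library.

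Ribosomal protein and respiratory chain genes had medians above 0 with both scalings, and higher ones where their exons were short. Of 68 ribosomal protein genes 56 were 2-fold or more higher (28 by library size), with a median of 1.62 (0.88). Small subunit gene rps16 had 122651 reads in the GFP-positive and 38865 in the GFP-negative library, a ratio of 2.31, whereas rpl3, of the large subunit, had 42100 against 80666 and -0.29. The 34 ribosomal protein genes of at most 1000 exon bases had a median of 1.74, and the 34 longer ones 1.16. Of 56 considered nuclear genes for the respiratory chain and ATP synthase, 35 were 2-fold or more higher and 0 lower, against 7 and 7 by library size, and the median was 1.12 (0.38). With TMM it was 1.36 for 30 short and 0.23 for 26 long genes. The cytochrome oxidase subunit gene cox7c (387 bases) had 20486 reads against 6995 and an interval of 2.16 to 2.24, and atp5a1 (1954 bases), an ATP synthase subunit gene, had 5036 against 11708 and -0.57 (-0.62 to -0.52).

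Across all considered genes, those under 1000 exon bases had the higher medians. The 152 genes of at most 500 exon bases had a median ratio of 1.51, the 783 of 500 to 1000 bases 0.69, and longer genes had medians near 0. The lowest was -0.24, in the 1547 genes of 1500 to 2000 bases, and the 950 of over 6000 bases had 0.0044. Without ribosomal protein genes the first value was 1.45. Of 13 genes on the mitochondrial genome 1 was 2-fold or more higher, and their median was 0.13 (-0.62 by library size). The highest was mt-nd3 (351 bases), a complex I subunit gene, with 42925 against 9719 reads and a ratio of 2.79. The lowest was mt-co1 (1551 bases), of cytochrome oxidase, with 85717 against 203552 and -0.60. At 48 h no such tilt of all considered genes was seen at the short end, where the shortest bin had a median of 0.03. The exon-exon share and the ribosomal share also differed between the 36 h libraries, and their part in the ratios of short genes was not tested. Among genes of at least 1000 bases, 433 were 4-fold or more higher and 148 4-fold or more lower.

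**Figure D3:**
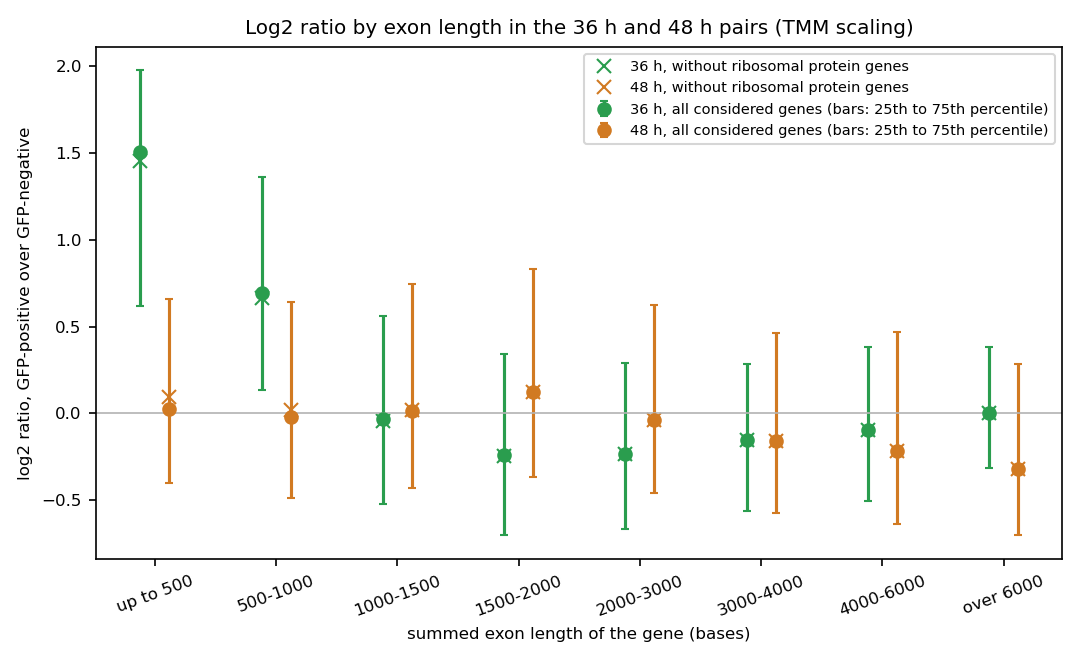
Median log2 ratio, GFP-positive over GFP-negative, of considered genes in 8 bins of summed exon length (bases), at 36 h (green) and 48 h (orange), with bars for the 25th to 75th percentile and crosses for medians without ribosomal protein genes. At 36 h the shortest bin has a median of 1.51 and at 48 h one of 0.03.

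The 48 h pair of the same lines shows which contrasts recurred when cells were sorted at the later time. At 48 h, 924 of 10030 considered genes (9.21%) were 4-fold or more higher and 122 (1.22%) 4-fold or more lower, and 17.6% and 6.53% passed 2-fold. The higher sets shared 376 genes, 68.5% of the 36 h set and 40.7% of the 48 h set. The lower sets shared 42 genes, 24.6% of the 36 h set and 34.4% of the 48 h set. Of the 549 genes of the 36 h higher set, 489 were considered at 48 h and 465 of those had a ratio above 0. Among all considered genes at 48 h, 46.3% had a ratio above 0. Of the 36 h lower set, 146 genes were considered at 48 h and 115 of those had a ratio below 0. No difference between the times could be tested with 1 library a side.

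With TMM, skin genes had similar medians at both times, and melanophore genes had a larger one at 48 h. The keratin and periderm median was 3.16 at 36 h and 2.97 at 48 h. By library size it was 2.42 at 36 h and higher, 3.10, at 48 h. The melanophore median was 1.21 at 36 h and 4.78 at 48 h, where 14 of 14 considered genes were 4-fold or more higher. The ionocyte median was 2.78 over 8 genes at 36 h and 3.01 over 13 at 48 h. By library size these medians were 2.05 and 3.15. Members of the ionocyte list went both ways. For atp1b1a, a widely used pump subunit, the ratio was 1.22 at 36 h and 0.25 at 48 h. For atp1b1b the ratio was 3.29 at 36 h and 5.24 at 48 h, and foxi3b, at 7 against 13 reads at 36 h, had 579 against 13 and a ratio of 5.29 at 48 h. Xanthophore slc2a15b had -0.01 at 36 h and 4.92 at 48 h, and gch2, which supplies pteridine pigment as well as cofactor, -0.24 and 4.69. Germ cell genes were also farther apart at 48 h, with dnd at 295 against 2 reads and vasa at 661 against 5.

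Many heart genes, the hatching enzymes and several islet hormones had larger ratios at 36 h. The heart muscle median was 6.92 at 36 h and 3.89 at 48 h, while tnnc1b and casq2, also genes of skeletal muscle, stood at 2.51 and 2.32 in the 36 h pair and at 4.90 and 3.59 in the later one. The enzyme gene he1a had 9.67 at 36 h and 4.53 at 48 h, but the hatching gland median was 1.42 at 36 h and 0.98 at 48 h with TMM. By library size it was 0.68 at 36 h and higher, 1.11, at 48 h. Of that list xbp1 had 0.29 at 36 h and 0.94 at 48 h. Insulin (ins) had 4.82 at 36 h and 1.44 at 48 h, while sst2 was 6.08 at 36 h and -2.54 at 48 h, where it had 5 against 39 reads and was under the minimum. Glucagon gcgb went the opposite way by over 4-fold, with 628 against 26 reads at 36 h and 1 against 571 at 48 h. Pronephric slc4a4a and cdh17, high at 36 h, had 52 and 19 GFP-positive against 59 and 51 GFP-negative reads at 48 h. Lens crystallin crygm2d12 had 1.46 at 36 h and -3.49 at 48 h.

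Neural and catecholamine genes shifted differently. The feeding peptide gene agrp had 4.44 at 36 h and 4.87 at 48 h, whereas npvf had -6.17 at 36 h and -0.65 at 48 h, with 118 against 188 reads. The enzyme gene th had 44 against 18 reads at 36 h and 272 against 31 at 48 h, ratios of 1.80 and 3.06, and dbh had 5.64 at 36 h and 0.51 at 48 h, where it was under the minimum, as th was at 36 h. The transporter gene slc18a2, without a GFP-positive read at 36 h, had 22 against 4 at 48 h. Skeletal muscle, at a median of -0.23 at 36 h, had 1.56 at 48 h, with smyhc1 at 7361 against 85 reads. Ribosomal protein genes, higher as a group at 36 h, had a median of -0.37 at 48 h with 0 of 68 above 0.

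**Figure D4:**
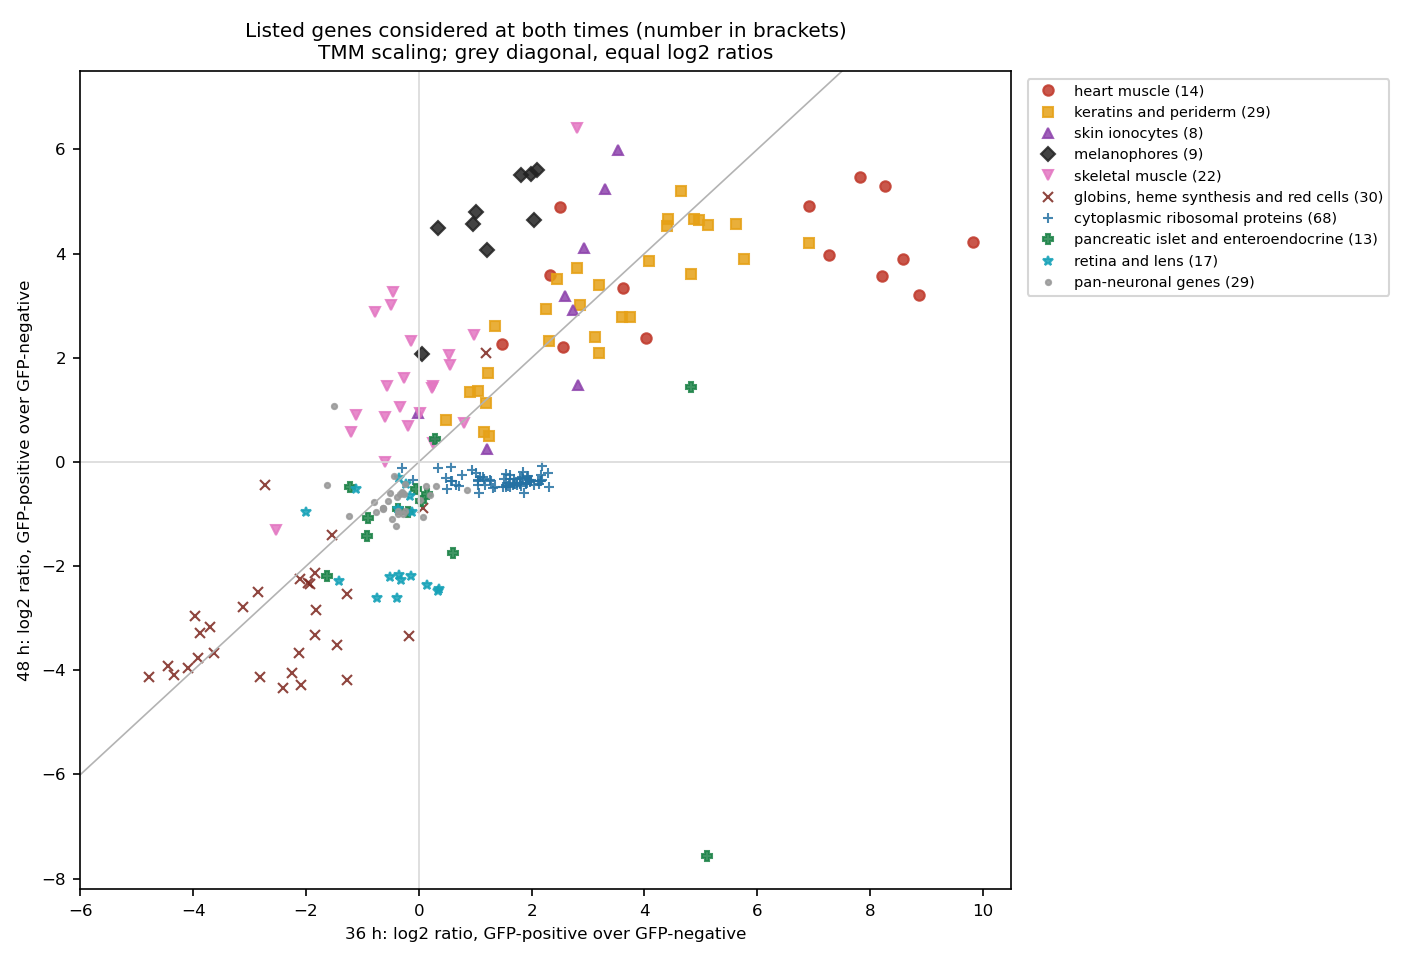
Log2 ratios (TMM), GFP-positive over GFP-negative, at 36 h (horizontal) and 48 h (vertical) for genes of 10 lists considered at both times, with the diagonal marking equal ratios. Heart muscle genes with 36 h ratios over 6 lie below the diagonal, melanophore genes lie above it, and the glucagon gene gcgb sits alone at 5.12 and -7.57.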

How the data were processed

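Per the file headers, the authors deposited whole-number read counts per feature (unique and total, for genes, exons, exon-exon and intron-exon reads) and RPKM values for each library, with the difference of the RPKM values of a row, which was read as a score. Per the labels, polyadenylated RNA was amplified before Illumina sequencing; the aligner is not given in the sources used here. Positions and exon lengths came from the Zv9 annotation columns of another deposited table of the series. Of the features, 4483 had no exon length.

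Total exon counts were scaled with TMM (edgeR 4.0.16, R 4.3.3), and log2 ratios used a prior count of 2. Genes with 5 CPM and 20 reads in at least 1 library were considered, and folds of 4 and 2 were counted. Intervals are exact Clopper-Pearson at 95%, and 0 reads were set to 3. A fold given as at least some value uses that floor and is not an end of an interval. With 1 library per side no test was made. The steps were tested on simulated data. For the ratios these were counts with known folds, which did not imitate amplification or the ribosomal and exon-length differences of the 36 h pair. Other tools were numpy 2.4.6, pandas 2.3.3, scipy 1.17.1 and matplotlib 3.10.9.

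The 43 gene lists (1090 entries) and the members were chosen with earlier results of these data known, and nanos was matched after its values were seen. Named genes are list members, the 20 highest and 20 lowest ratios with a gene symbol, the 10 features with most reads per library, and the 10 largest differences between 36 h and 48 h in each direction. Alternatives were library-size and median-of-ratios scaling (DESeq2 1.42.0), other minimums, a prior of 10 and unique reads. A few genes of the lists are not reported here.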

Additional observations from a re-analysis of the deposited data

Results flagged for a closer look

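The glucagon gene gcgb was drawn out because its GFP-positive over GFP-negative log2 ratio was 5.12 at 36 h and -7.57 at 48 h. It had 628 GFP-positive and 26 GFP-negative reads at 36 h, and 1 and 571 reads at 48 h. The gene zgc:110829, which no list held, had the reverse pattern, with ratios of -2.88 at 36 h and 5.37 at 48 h. It had 9 against 119 reads at 36 h and 3117 against 74 at 48 h. They were the only genes at least 4-fold higher at one time and at least 4-fold lower at the other, among 9093 considered at both. The difference between the times was not tested, since each side is 1 library, and no cause was tested.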

How the results depend on the processing

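No paired analysis was possible because each side is 1 library, and for the same reason no replicate could be left out. At 36 h the main counts were 549 and 171 genes at least 4-fold higher and lower, and 1384 and 1034 at least 2-fold higher and lower. In the same order, library-size scaling gave 338, 591, 691 and 3983 genes, as it shifts every ratio down. No minimum gave 1449, 1342, 3973 and 4621 genes, since sparse features enter. A minimum of 20 CPM and 100 reads gave 275, 37, 732 and 360, since fewer genes are considered. A minimum on the mean of both libraries gave 86 genes at least 4-fold lower. Median-of-ratios scaling, a prior count of 10, unique reads and genes of at least 1000 exon bases left all 4 counts within 1.5 times. The length setting and the removal of features under 80% unique reads were chosen after seeing the data.

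Of 40 list medians, 9 changed sign by library size, and of the 11 at 1 or more in size 11 kept theirs. That scaling moved the medians by -0.74 to -0.70, so those 11 could not change sign by it. The neuropeptide and pituitary median, 1.12 over 4 genes, turned to -0.084 with no minimum. Genes with few reads in both libraries, such as foxi3b and dnd, have intervals several log2 units wide.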
